A study of Tachysurus vachellii and Tachysurus fulvidraco x Tachysurus vachelli and Tachysurus fulvidraco with 9 samples.

Results

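Epithelial miRNAs were examined in the livers of 3 lines of juvenile catfish: fru-miR-200a_R+1 and xtr-miR-200b of the miR-200 family, and gga-miR-183_R-1 of the miR-183 cluster. They were chosen by name, as the rows of the deposited small RNA table that carry exactly these names, and are 3 of its 888 entries. The lines were the hybrid yellow catfish Huangyou-1, bred from females of P. fulvidraco and males of P. vachelli, and the purebred parental species P. vachelli and P. fulvidraco. Each line has 3 libraries, numbered 1 to 3, and the labels do not say whether a library is 1 fish, an aquarium or a pool, so p-values measure only the spread between these samples, which may be technical. Juveniles of each line were raised by the same procedure in 3 aquaria, and the labels give no age and no treatment beyond the line itself. The study's title concerns heterosis, and the comparisons ask how the hybrid lies relative to each parent and how far apart the parents are.

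The miR-200 family is known from vertebrate epithelia, where it represses the transcription factors Zeb1 and Zeb2 and so helps to keep cells in the epithelial state. In mammals miR-200b, miR-200a and miR-429 are processed from one primary transcript and miR-200c and miR-141 from another. In mammalian liver the family is associated with the biliary epithelium rather than with hepatocytes, which are marked by miR-122. The miR-183 cluster encodes miR-183, miR-96 and miR-182 and is known from sensory cells such as photoreceptors and hair cells. In bulk liver, fewer cells of a type and less RNA per cell cannot be told apart.

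The mature sequences are shown because the seed, bases 2 to 8 from the 5′ end, sets which targets a miRNA can pair with and divides these families into groups. They are given 5′ to 3′ as in the authors' table, with T for U and the seed in capitals.
fru-miR-200a_R+1: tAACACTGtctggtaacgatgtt
xtr-miR-200b: tAATACTGcctggtaatgatgat
xtr-miR-429: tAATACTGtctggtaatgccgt
bta-miR-200c: tAATACTGccgggtaatgatgga
ssa-miR-200b-5p: cATCTTACctgacagtgctgga
gga-miR-183_R-1: tATGGCACtggtagaattcact
bta-miR-96: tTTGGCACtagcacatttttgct
aca-miR-182-5p_1ss10GA: tTTGGCAAtagtagaactcaca

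With positions counted from 1 at the 5′ end, fru-miR-200a_R+1 and xtr-miR-200b were identical at 19 of 23 bases and differed by C4T, T9C, C17T and T22A. Of these, C4T lies in the seed, so the pair falls into different seed groups. Sequences xtr-miR-429 and bta-miR-200c differed from xtr-miR-200b at 4 of 22 and 3 of 23 bases, all outside the seed, and share its seed. No other distinct sequence of the table carries the seed of fru-miR-200a_R+1 or that of gga-miR-183_R-1. Compared with gga-miR-183_R-1, bta-miR-96 has A2T in the seed, and aca-miR-182-5p_1ss10GA has A2T and C8A there.

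Values are the authors' normalized read counts. From the value of 1 read, the listed entries of a library held an estimated 5737468 to 6469200 reads in hybrid livers, 7076526 to 8578713 in P. vachelli and 6336148 to 7425489 in P. fulvidraco. Reads outside the listed entries are not included, and the estimates are less exact than their digits. The totals of the normalized counts were unequal too, at 6230587 to 6635109 in hybrid livers, 7704357 to 8395613 in P. vachelli and 6260802 to 6857288 in P. fulvidraco, so values are also given as CPM, scaled to equal library totals. The hepatocyte miRNA ssa-miR-122-5p made up 27.9% to 33.1% of a library's total. Differences were tested with limma over 278 distinct sequences that reached 10 in at least 3 libraries, and p-values were adjusted by Benjamini and Hochberg over all of them. A sequence is called when its adjusted p is under 0.05. All 3 members were tested, but gga-miR-183_R-1 reached 10 in the P. vachelli libraries alone.

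Among the 728 distinct sequences of the table, fru-miR-200a_R+1 ranked 44 to 51 and xtr-miR-200b, as a single entry, 65 to 78 in abundance over the libraries. gga-miR-183_R-1 ranked 232 to 482.

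The family member fru-miR-200a_R+1 stood at 8747, 9312 and 8602 normalized counts in hybrid libraries 1, 2 and 3, at 10565, 11686 and 10737 in P. vachelli and at 7853, 9082 and 8767 in P. fulvidraco. All 3 P. vachelli libraries lay above the other 6, and hybrid and P. fulvidraco libraries overlapped. The means were 8887 ± 375 in hybrid livers, 10996 ± 604 in P. vachelli and 8567 ± 638 in P. fulvidraco (SD, n = 3 each). As CPM the values were 1404, 1460 and 1296 in hybrid livers, 1270, 1517 and 1279 in P. vachelli and 1174, 1451 and 1278 in P. fulvidraco. On that scale every pair of lines overlapped.

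The values of xtr-miR-200b were 4325, 3836 and 3961 normalized counts in hybrid livers, 5442, 5344 and 4523 in P. vachelli and 3394, 3847 and 3695 in P. fulvidraco. The order of the lines was that of fru-miR-200a_R+1, with P. vachelli apart from both others. The means were 4041 ± 254 in hybrid livers, 5103 ± 505 in P. vachelli and 3646 ± 230 in P. fulvidraco (SD, n = 3 each). As CPM they were 631 ± 54.8 in hybrid livers, 629 ± 80.5 in P. vachelli and 554 ± 55.1 in P. fulvidraco, and all pairs of lines overlapped. The same sequence stands in the table under 2 names, xtr-miR-200b and aca-miR-200b-3p_R+1, with equal values. Low values of the 147 sequences with 2 entries fell on whole reads in 37.3% of cases (164 of 440) taken singly and in 96.6% (425 of 440) when doubled, within 0.1 read, as when reads are divided between entries. The level of xtr-miR-200b may therefore be 2 times the single value, which leaves fold changes between lines nearly untouched.

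The third member, gga-miR-183_R-1, was scarce. It stood at 7.74, 1.97 and 0 normalized counts in hybrid livers, at 15.1, 17.1 and 14.2 in P. vachelli and at 2.79, 2.96 and 1.85 in P. fulvidraco. Divided by the value of 1 read in each library, this is 8, 2 and 0 reads in hybrid livers, 14, 19 and 12 in P. vachelli and 3, 3 and 2 in P. fulvidraco. The P. vachelli libraries lay above the other 6, and the hybrid libraries spread over both sides of those of P. fulvidraco. Summed over 3 libraries, there were 10 reads in hybrid livers (exact Poisson 95% interval 4.80 to 18.4), 45 in P. vachelli (32.8 to 60.2) and 8 in P. fulvidraco (3.45 to 15.8). The intervals cover counting error only, not the spread between libraries of a line, such as the 8, 2 and 0 reads in hybrid livers. Reads copied by PCR and carrying no molecular identifier do not each stand for a molecule, so the intervals are no test of the lines. The 0 in hybrid library 3 allows up to 3 reads as a one-sided limit, a value of 3.47, and up to 3.69 reads by the two-sided interval. As CPM the means were 0.517 ± 0.647 in hybrid livers, 1.91 ± 0.272 in P. vachelli and 0.387 ± 0.105 in P. fulvidraco (SD, n = 3 each), and P. vachelli remained above all other libraries.

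**Figure D1:**
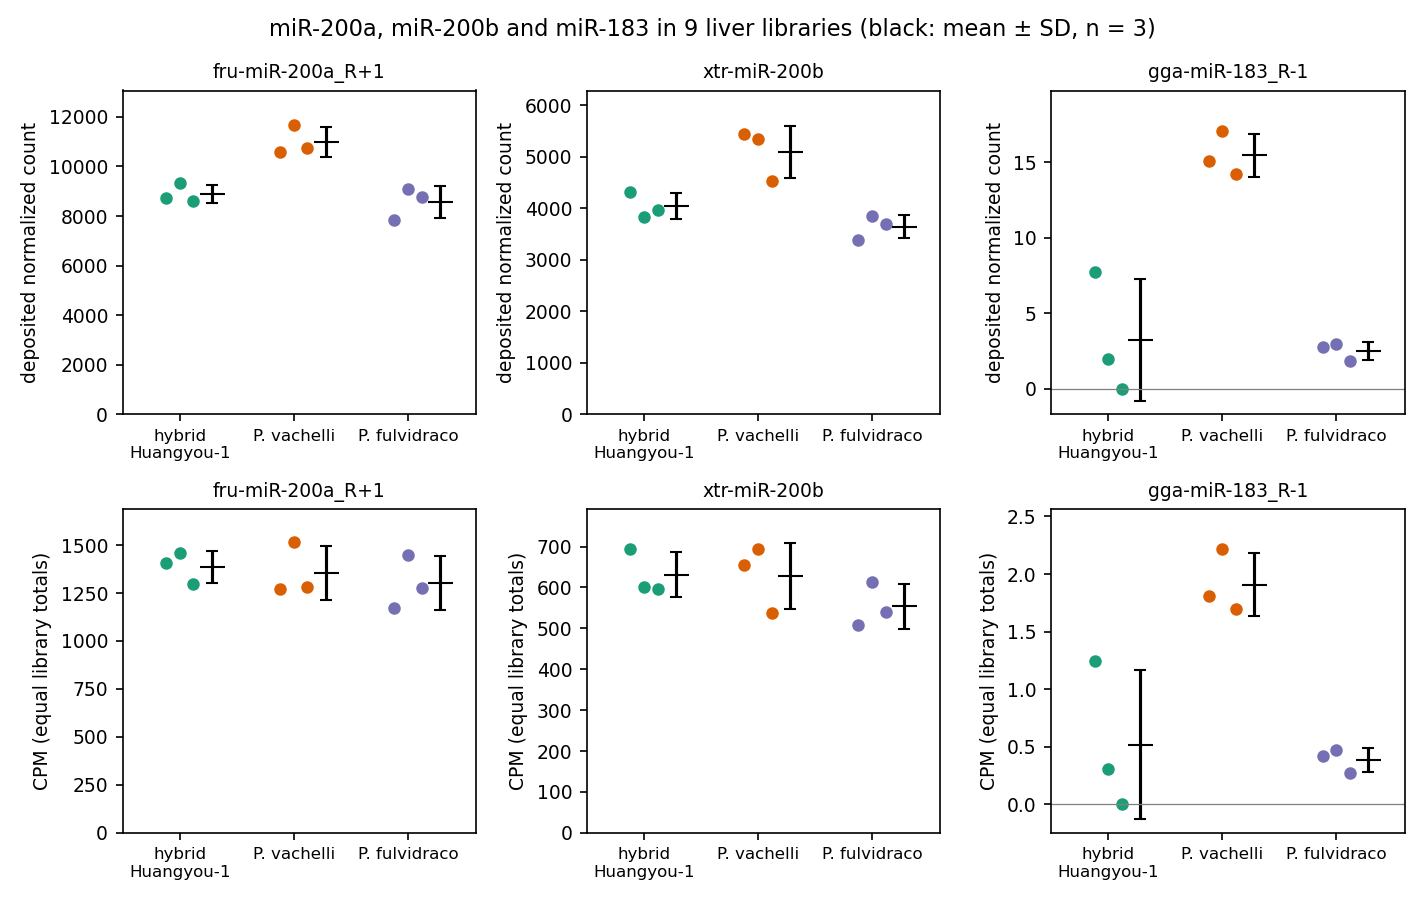
Values of fru-miR-200a_R+1, xtr-miR-200b and gga-miR-183_R-1 in each of 9 libraries (points), with the mean ± SD per line in black, as deposited normalized counts (top) and as CPM of the library's total (bottom). The 3 P. vachelli libraries lie above the rest for each miRNA in the top row, and in the bottom row for gga-miR-183_R-1.

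As deposited, both miR-200 members varied little between libraries of a line. The coefficient of variation of fru-miR-200a_R+1 was 4.22% in hybrid livers, 5.49% in P. vachelli and 7.45% in P. fulvidraco, and that of xtr-miR-200b 6.29%, 9.89% and 6.32% in the same order. The medians over the 278 tested sequences, most of them scarcer, were 15.0%, 15.4% and 15.5%. As CPM the spread of fru-miR-200a_R+1 was wider, at 1387 ± 83.3 in hybrid livers, 1355 ± 140 in P. vachelli and 1301 ± 140 in P. fulvidraco (SD, n = 3 each). For gga-miR-183_R-1 the coefficient was 124% in hybrid livers, 9.40% in P. vachelli and 23.6% in P. fulvidraco.

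The hybrid against its paternal species P. vachelli showed lower values of all 3 members as deposited. The log2 fold change was -0.31 for fru-miR-200a_R+1 (SE 0.10, adjusted p = 0.0346), -0.33 for xtr-miR-200b (SE 0.11, adjusted p = 0.0465) and -2.47 for gga-miR-183_R-1 (SE 0.67, adjusted p = 0.0160). In this comparison 34.9% of the 278 tested sequences were called, 15.5% as higher and 19.4% as lower in the hybrid. The 3 members also had groups that did not overlap, as did 46.8% of tested sequences, with 25.9% of tested sequences lower in the hybrid. The log2 values are of the normalized count plus 1, so the size of the change of the scarce gga-miR-183_R-1 depends on the number added. With 10 added it was -0.98, and without hybrid library 3, which holds 0 reads, it was -1.69. For that miRNA the test is no independent count, because it entered the fit only through the P. vachelli libraries.

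The calls of both miR-200 members in this comparison were marginal, each lost with any 1 of 6 libraries left out. The log2 fold change itself stayed at -0.34 to -0.26 for fru-miR-200a_R+1 and at -0.42 to -0.28 for xtr-miR-200b. For fru-miR-200a_R+1 the adjusted p was 0.0749, 0.0528 or 0.0875 without hybrid library 1, 2 or 3, 0.133 or 0.0567 without P. vachelli library 2 or 3, and 0.0536 without P. fulvidraco library 3. For xtr-miR-200b it was 0.137 or 0.0952 without hybrid library 2 or 3, 0.114 or 0.152 without P. vachelli library 1 or 2, and 0.0656 or 0.0725 without P. fulvidraco library 2 or 3. For gga-miR-183_R-1 it was 0.0560 without P. vachelli library 2. The size of the last difference moved with the hybrid libraries, between -3.25 without library 1 and -1.69 without library 3 on the log2 scale.

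Scaling to equal totals changed what the comparison with P. vachelli shows for the miR-200 members. The log2 fold change became 0.036 for fru-miR-200a_R+1 (95% interval -0.24 to 0.31, adjusted p = 0.837) and 0.0093 for xtr-miR-200b (-0.30 to 0.32, adjusted p = 0.967), both with the sign turned. For gga-miR-183_R-1 it was -2.19 (SE 0.70, adjusted p = 0.0334), a call that the filter favoured, since only the P. vachelli libraries carried it into the fit. Under this scaling 41% of tested sequences were called, 9.71% as lower in the hybrid, and 55.4% had groups that did not overlap, 13.7% with the hybrid lower. The median log2 fold change of all tested sequences was 0.34 with equal totals and -0.01 as deposited. Less that median, the hybrid difference was -0.30 for fru-miR-200a_R+1 and -0.33 for xtr-miR-200b, values that a library scaling cannot change because it shifts all sequences alike. Scaling by median ratios, which sets the typical sequence equal between libraries, gave -0.34 for fru-miR-200a_R+1 (adjusted p = 0.0183) and -0.37 for xtr-miR-200b (adjusted p = 0.0334). Whether a difference was called for the miR-200 members thus depended on the scaling.

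**Figure D2:**
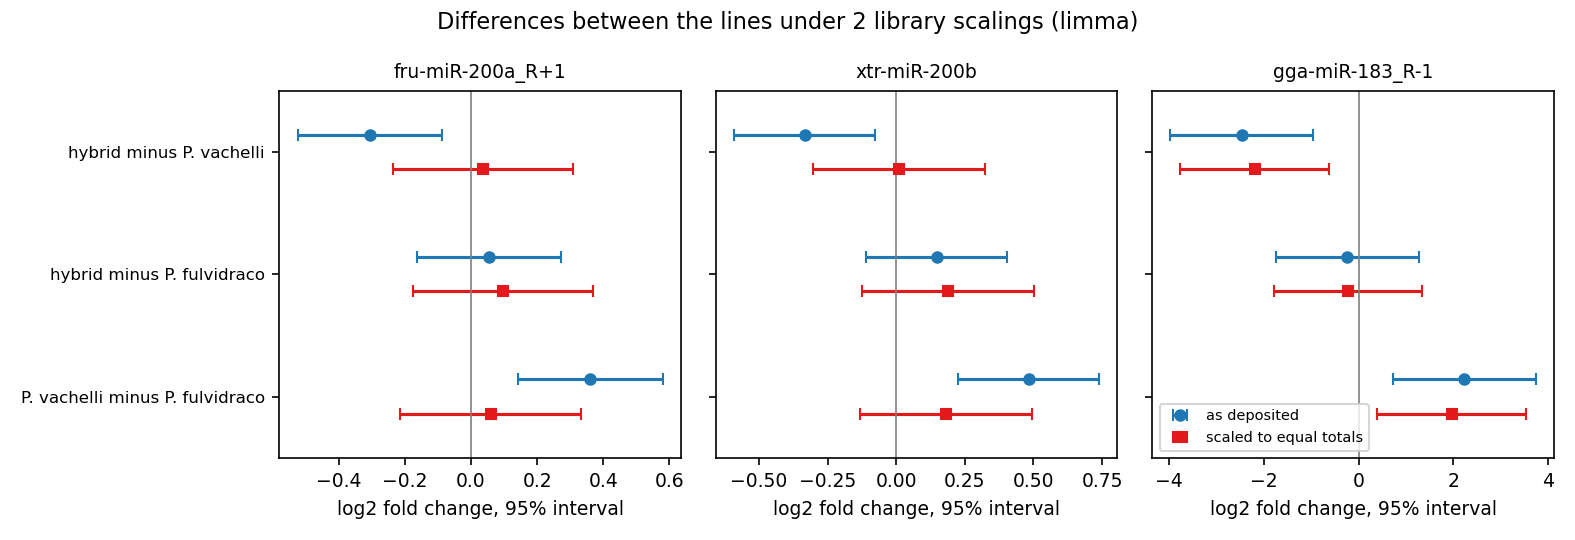
Log2 fold changes with 95% intervals from limma for each member in 3 comparisons, as deposited (circles) and with libraries scaled to equal totals (squares). The intervals of fru-miR-200a_R+1 and xtr-miR-200b that involve P. vachelli span 0 once totals are equal, and those of gga-miR-183_R-1 do not. Only the P. vachelli libraries carried gga-miR-183_R-1 past the filter.

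No difference between the hybrid and its maternal species P. fulvidraco was called for any member, against 19.4% of all tested sequences, 12.9% as higher in the hybrid. All 3 members overlapped, while 36.3% of tested sequences did not. The log2 fold change was 0.05 for fru-miR-200a_R+1 (95% interval -0.16 to 0.27, adjusted p = 0.756) and 0.15 for xtr-miR-200b (-0.11 to 0.41, adjusted p = 0.429). With equal totals the values were 0.10 (adjusted p = 0.656) and 0.19 (adjusted p = 0.403), with 20.1% of tested sequences called and 36% not overlapping. For gga-miR-183_R-1 it was -0.24 with a wide interval of -1.74 to 1.26 (adjusted p = 0.845), and the sign turned to 0.54 without hybrid library 3, which holds 0 reads. These lines hold 0 to 8 reads of it per library, and the interval leaves changes in either direction possible.

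Between the parents both miR-200 members were called as higher in P. vachelli as deposited, and so was gga-miR-183_R-1, which had to differ because it passed the filter through P. vachelli alone. In this comparison 51.4% of tested sequences were called, 30.9% as higher and 20.5% as lower. None of the 3 overlapped between the parents, as held for 59.4% of tested sequences and with P. vachelli higher for 34.5%. The log2 fold change was 0.36 for fru-miR-200a_R+1 (SE 0.10, adjusted p = 0.0121), 0.48 for xtr-miR-200b (SE 0.11, adjusted p = 0.00585) and 2.23 for gga-miR-183_R-1 (SE 0.67, adjusted p = 0.0197). Without P. vachelli library 2 the adjusted p was 0.0558 for fru-miR-200a_R+1 and 0.0595 for gga-miR-183_R-1, and for gga-miR-183_R-1 it was also 0.0636 without P. fulvidraco library 3. The call of xtr-miR-200b was kept with each of the 9 libraries left out, at an adjusted p of 0.00462 to 0.0303.

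With equal totals 50.7% of tested sequences were called between the parents, 19.4% as higher in P. vachelli, and 61.5% did not overlap, 22.7% with P. vachelli higher. The difference was 0.060 for fru-miR-200a_R+1 (95% interval -0.21 to 0.33, adjusted p = 0.699) and 0.18 for xtr-miR-200b (-0.13 to 0.49, adjusted p = 0.294). That of gga-miR-183_R-1 was 1.97 (SE 0.70, adjusted p = 0.0390), again favoured by the filter, which it passed through P. vachelli alone. The median of all tested sequences was -0.34 with equal totals and -0.05 as deposited. Less that median, the parental difference was 0.41 for fru-miR-200a_R+1 and 0.53 for xtr-miR-200b as deposited, which again a library scaling leaves nearly as it is.

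Against the average of the parental log2 means (the mid-parent) the hybrid gave no call for the members, where 18.7% of tested sequences were called as deposited and 23% with equal totals. The log2 fold change was -0.13 for fru-miR-200a_R+1 (adjusted p = 0.299), -0.09 for xtr-miR-200b (adjusted p = 0.533) and -1.36 for gga-miR-183_R-1 (adjusted p = 0.129). Equal totals turned the sign of the first pair, to 0.07 (adjusted p = 0.690) and 0.10 (adjusted p = 0.588). For gga-miR-183_R-1 the value without hybrid library 1 was -2.14 (adjusted p = 0.0171), with 2 hybrid libraries at 2 and 0 reads remaining. Without hybrid library 3 it was -0.57 (adjusted p = 0.373), so the call depended on which library was left out. Here too, only the P. vachelli libraries carried gga-miR-183_R-1 past the filter.

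Ratios within a library do not depend on its scaling, apart from the 1 added before taking log2. That of fru-miR-200a_R+1 to xtr-miR-200b, each as a single entry, was 2.02, 2.43 and 2.17 in hybrid livers, 1.94, 2.19 and 2.37 in P. vachelli and 2.31, 2.36 and 2.37 in P. fulvidraco. The ranges of all pairs of lines overlapped. As log2 values the means were 1.14 ± 0.13 in hybrid livers, 1.11 ± 0.15 in P. vachelli and 1.23 ± 0.02 in P. fulvidraco (SD, n = 3 each). In a two-sided exact permutation test p was 0.8 for the hybrid against P. vachelli, 0.4 against P. fulvidraco and 0.4 between the parents, where 3 against 3 libraries cannot go below 0.1. With both entries of the miR-200b sequence summed, the ratio was 0.971 to 1.21 over the 9 libraries.

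Grouped by seed, with entries summed, fru-miR-200a_R+1 held 49.0% ± 2.53 of the normalized counts of both seeds in hybrid livers, 48.5% ± 2.18 in P. vachelli and 50.2% ± 0.685 in P. fulvidraco (SD, n = 3 each), the rest being xtr-miR-200b, xtr-miR-429 and bta-miR-200c. Both seeds were thus present at near equal level in each library, with a share of 46.2% to 51.8%. Taken as single entries the share was 60.7% to 65.8%. These shares were added after the values were seen and were not tested.

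**Figure D3:**
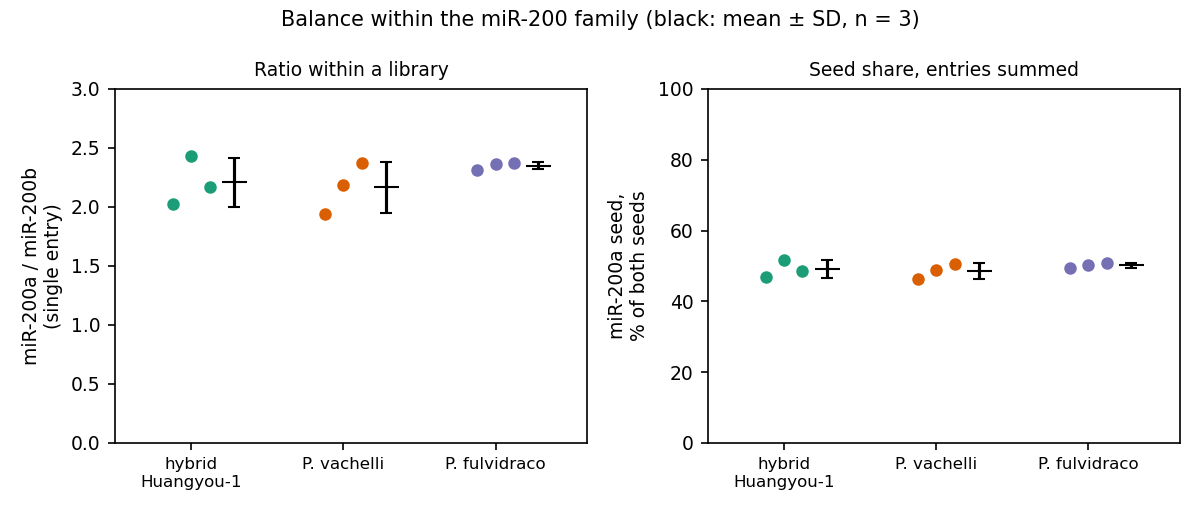
Left, the ratio of fru-miR-200a_R+1 to xtr-miR-200b as single entries in each library. Right, the percentage of normalized counts with the miR-200a seed among both seeds of the family, with entries summed. Points are libraries and black marks give the mean ± SD, and the 3 lines overlap in both panels.

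The members were also set against the hepatocyte miRNA ssa-miR-122-5p within each library. The denominator itself differed as deposited, with a log2 fold change of -0.48 for the hybrid against P. vachelli (limma, adjusted p = 0.000978). It was -0.16 against P. fulvidraco (adjusted p = 0.196) and 0.32 between the parents (adjusted p = 0.00646). A higher ratio in hybrid livers is therefore not by itself a gain of a miR-200 member. On the log2 scale xtr-miR-200b over ssa-miR-122-5p was -8.80 ± 0.12 in hybrid livers, -8.94 ± 0.28 in P. vachelli and -9.11 ± 0.17 in P. fulvidraco (SD, n = 3 each). The hybrid and P. fulvidraco libraries did not overlap, with a difference of 0.31 (two-sided exact permutation p = 0.1, the smallest that the design allows, and 0.4 when adjusted over 12 tests). For fru-miR-200a_R+1 the difference was 0.17 against P. vachelli (exact permutation p = 0.3) and 0.21 against P. fulvidraco (exact permutation p = 0.2), with overlap in both cases. For gga-miR-183_R-1 over ssa-miR-122-5p the difference was -1.99 for the hybrid against P. vachelli and 1.91 for P. vachelli against P. fulvidraco, without overlap (exact permutation p = 0.1 each, 0.4 adjusted). This separation is no independent support, because only the P. vachelli libraries carried gga-miR-183_R-1 past the filter.

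The miR-200 family was also counted as a whole, where only xtr-miR-429 and ssa-miR-200b-5p were tested besides the members. Of its 5 distinct sequences 4 were tested, and 2 of the 4 were called as lower in hybrid livers than in P. vachelli, 0 against P. fulvidraco (by limma, also 0 at an unadjusted p under 0.05) and 3 as higher in P. vachelli than in P. fulvidraco. Over all tested sequences 19.4% were lower in the first comparison, 19.4% were called in the second and 30.9% were higher in the third. The medians of the 4 were -0.33, 0.10 and 0.42 on the log2 scale, beside -0.01, 0.06 and -0.05 over all tested sequences. With equal totals 0 of the 4 were called by limma in any of these comparisons, against 1 at an unadjusted p under 0.05 in each comparison with P. fulvidraco, that of the opposite arm ssa-miR-200b-5p. Over all tested sequences 41%, 20.1% and 50.7% were called on that scale, in the same order of comparisons.

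The seed sister xtr-miR-429 stood at 1295, 1005 and 1206 normalized counts in hybrid livers, 1391, 1607 and 1435 in P. vachelli and 1236, 1288 and 1093 in P. fulvidraco. P. vachelli lay above both other lines, but no difference was called, with a log2 difference of -0.34 for the hybrid against P. vachelli (adjusted p = 0.0772) and 0.29 between the parents (adjusted p = 0.0997). As CPM its means were 182 ± 25.1 in hybrid livers, 182 ± 22.8 in P. vachelli and 183 ± 23.2 in P. fulvidraco (SD, n = 3 each). It amounted to 13.2% ± 2.13 of fru-miR-200a_R+1 in hybrid livers, 13.4% ± 0.295 in P. vachelli and 14.1% ± 1.63 in P. fulvidraco.

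The opposite arm of the miR-200b precursor, ssa-miR-200b-5p, stood at 30.0, 42.4 and 26.6 normalized counts in hybrid livers, 39.8, 44.0 and 39.2 in P. vachelli and 29.8, 17.8 and 17.6 in P. fulvidraco. It was called between the parents, with a log2 difference of 0.93 (SE 0.27, adjusted p = 0.0163), but not with equal totals, at 0.64 (adjusted p = 0.0766). The call was also lost without P. vachelli library 2 (adjusted p = 0.0572) and without P. fulvidraco library 2 (0.061) or 3 (0.062). It amounted to 0.823% ± 0.244 of a single entry of xtr-miR-200b in hybrid livers, 0.807% ± 0.0690 in P. vachelli and 0.605% ± 0.236 in P. fulvidraco. The scarce bta-miR-200c stood at 0 to 2.42 in hybrid livers, 0.6 to 3.22 in P. vachelli and 2.77 to 5.93 in P. fulvidraco, with the hybrid below P. fulvidraco in every library, and failed the filter. With no filter its log2 fold change for the hybrid against P. fulvidraco was -1.29 (adjusted p = 0.269). The table had no entry for miR-141.

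Of the miR-183 cluster, gga-miR-183_R-1 alone of 5 distinct sequences was tested. Its neighbour aca-miR-182-5p_1ss10GA, which has 2 entries, gave with both summed 14, 9 and 3 reads in hybrid livers, 17, 29 and 28 in P. vachelli and 7, 15 and 17 in P. fulvidraco. The hybrid lay below P. vachelli in every library, and hybrid and P. fulvidraco libraries overlapped. With no filter on low values its log2 fold change was -1.48 for the hybrid against P. vachelli (adjusted p = 0.0855) and 0.99 between the parents (adjusted p = 0.207). The third miRNA of the cluster, bta-miR-96, stood at 0 to 3.94 normalized counts in hybrid livers, 1.07 to 3.56 in P. vachelli and 0.93 to 4.94 in P. fulvidraco, and the lines overlapped. Both opposite arms, aca-miR-182-3p and ssa-miR-183-2-3p_L-2_1ss14TA, were at 0 in 8 of 9 libraries.

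Other epithelial miRNAs did not share one pattern. In a list of surface epithelium (miR-31, miR-184, miR-203 and miR-205) 4 of 9 distinct sequences were tested. Against P. vachelli 1 of the 4 was lower in hybrid livers, against P. fulvidraco 2 were higher, and 3 were higher in P. vachelli than in P. fulvidraco, with medians of -0.21, 0.84 and 0.86 on the log2 scale. The shares of all tested sequences called in these directions were 19.4%, 12.9% and 30.9%. With equal totals the parental count was 2, and the hybrid had 1 higher and 1 lower against P. vachelli. On that scale 19.4% of all tested sequences were higher in P. vachelli than in P. fulvidraco. Against P. vachelli, 87 of the 278 were higher and 27 lower in the hybrid. The keratinocyte-associated dre-miR-31_L+1 averaged 11.5 ± 3.35 normalized counts in hybrid livers, 82.1 ± 12.1 in P. vachelli and 6.0 ± 2.34 in P. fulvidraco. Outside P. vachelli it reached 10 only in hybrid libraries 1 and 2 (11.6 and 14.8), so the filter favoured its calls too. The means of gga-miR-183_R-1 had the same order of lines, but through hybrid library 1 alone. Its log2 fold change for the hybrid against P. fulvidraco was -0.24, and -1.02 without that library. In contrast, the epidermal ssa-miR-205b-5p averaged 1090 ± 293 in hybrid livers, 1174 ± 52.4 in P. vachelli and 601 ± 7.10 in P. fulvidraco, so that the hybrid stood near P. vachelli (SD, n = 3 each). Its log2 fold change was 0.82 for the hybrid against P. fulvidraco (adjusted p = 0.0136), a call lost without hybrid library 2 (0.0566) or P. fulvidraco library 3 (0.0533), and 0.96 between the parents (adjusted p = 0.00223), and both calls were kept with equal totals. The corneal miRNA aca-miR-184-3p averaged 50.2 ± 11.7 in hybrid livers, 34.6 ± 4.35 in P. vachelli and 20.4 ± 4.0 in P. fulvidraco, and the hybrid was above P. fulvidraco by a log2 difference of 1.25 (adjusted p = 0.00721). Against P. vachelli it was called with equal totals (0.84, adjusted p = 0.0196) but not as deposited (0.51, adjusted p = 0.136). Its call between the parents (adjusted p = 0.0285) was lost without P. vachelli library 1 (0.0734) or 2 (0.0867) or P. fulvidraco library 2 (0.105), and with equal totals (0.125). The epidermal aca-miR-203-3p was not called in these comparisons, with adjusted p of 0.523 to 0.830.

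**Figure D4:**
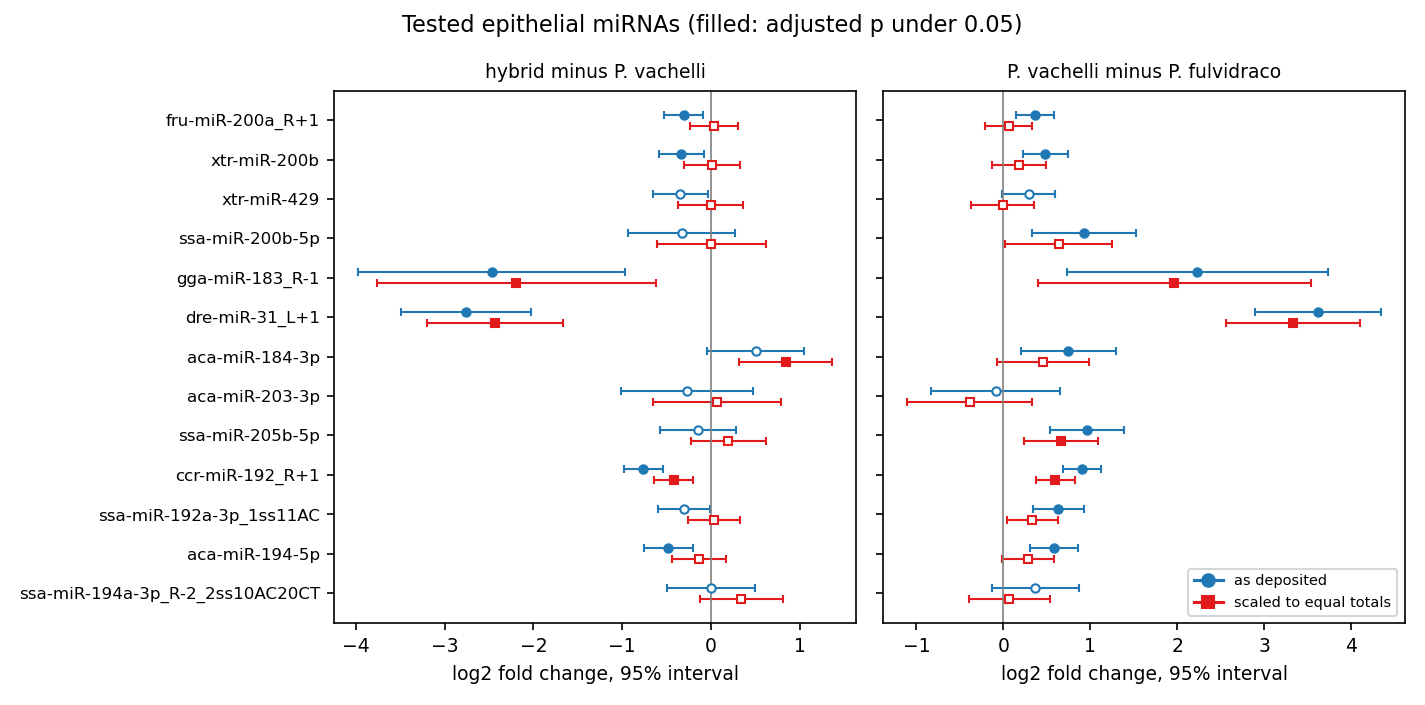
Log2 fold changes with 95% intervals for the 13 tested epithelial sequences, the hybrid against P. vachelli (left) and P. vachelli against P. fulvidraco (right), as deposited (circles) and with equal totals (squares). Filled symbols have an adjusted p under 0.05, which holds under both scalings for gga-miR-183_R-1, dre-miR-31_L+1 and ccr-miR-192_R+1 in both panels and for neither miR-200 member. The filter favoured the calls of gga-miR-183_R-1, which passed it through P. vachelli alone, and those of dre-miR-31_L+1, which passed it mainly through P. vachelli.

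In the list of intestine and liver epithelium (miR-192, miR-194 and miR-215, the last without an entry), 4 of 6 distinct sequences were tested. Of these, 2 were lower in hybrid livers than in P. vachelli, 0 were called against P. fulvidraco (by limma, with 1 at an unadjusted p under 0.05) and 3 were higher in P. vachelli than in P. fulvidraco, with medians of -0.39, 0.23 and 0.61. Of all tested sequences 19.4% were lower in the first comparison, 19.4% called in the second and 30.9% higher in the third. With equal totals 1 of the 4 was lower in the hybrid and 1 was higher in P. vachelli than in P. fulvidraco. The shares of all tested sequences on that scale were 9.71% and 19.4%. The 2 lower ones were ccr-miR-192_R+1 at -0.76 (adjusted p = 0.000356) and aca-miR-194-5p at -0.48 (adjusted p = 0.0122, and 0.0576 without P. vachelli library 2), both abundant in hepatocytes as well. With equal totals ccr-miR-192_R+1 was still called, at -0.42 (adjusted p = 0.0102), and aca-miR-194-5p was not, at -0.14 (adjusted p = 0.438).

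Markers of other cell types were counted in the same way, beside 15.5% of all tested sequences higher and 19.4% lower in hybrid livers against P. vachelli, and 30.9% higher and 20.5% lower in P. vachelli against P. fulvidraco, all as deposited. With equal totals 87 of the 278 tested sequences were higher and 27 lower in hybrid livers against P. vachelli, with a median log2 fold change of 0.34. On that scale 54 were higher and 87 lower in P. vachelli against P. fulvidraco, with a median of -0.34. The endothelial miR-126 sequences, of which 5 of 6 were tested, summed to 218022 to 249697 normalized counts in hybrid livers, 337366 to 398038 in P. vachelli and 228046 to 259365 in P. fulvidraco, with 4 lower in hybrid livers than in P. vachelli and 5 higher in P. vachelli than in P. fulvidraco. As CPM the sum was 34992 to 37633 in hybrid livers, 40184 to 47857 in P. vachelli and 34082 to 37823 in P. fulvidraco, still without overlap between P. vachelli and the others, with 3 lower and 4 higher. The fibroblast and smooth muscle list (miR-143, miR-145 and miR-199, 10 of 13 tested) summed to 298032 to 361256 in hybrid livers, 381150 to 421061 in P. vachelli and 291085 to 339433 in P. fulvidraco, with 2 lower and 7 higher in the same comparisons. As CPM that sum was 47834 to 54446 in hybrid livers, 45826 to 50223 in P. vachelli and 45029 to 50728 in P. fulvidraco, so that all lines overlapped. With equal totals 0 were lower by limma (also 0 at an unadjusted p under 0.05) and 2 higher in hybrid livers than in P. vachelli, and 3 were higher in P. vachelli than in P. fulvidraco. The erythroid list (miR-144 and miR-451, 8 of 9 tested) went the other way, at 58720 to 97610 in hybrid livers, 37915 to 42304 in P. vachelli and 78963 to 94637 in P. fulvidraco, with 5 higher in the hybrid than in P. vachelli and, between the parents, 2 higher and 5 lower. With equal totals 6 were higher in the hybrid, and between the parents 2 were higher and 6 lower. Pancreatic miR-216, miR-217 and miR-375 summed to 9781 to 17385 in hybrid livers, 5730 to 12104 in P. vachelli and 8465 to 15441 in P. fulvidraco, ranges that overlapped, with 0 of 3 tested sequences called by limma in either comparison, against 2 at an unadjusted p under 0.05 for the hybrid against P. vachelli and 0 between the parents. As CPM the pancreatic sum was 1474 to 2726 in hybrid livers, 683 to 1455 in P. vachelli and 1317 to 2252 in P. fulvidraco. On that scale the hybrid lay above P. vachelli without overlap, and P. fulvidraco overlapped both. With equal totals 2 of the 3 were called as higher in hybrid livers than in P. vachelli, fru-miR-216b (adjusted p = 0.0110) and tni-miR-375 (adjusted p = 0.0362). Each family of these 4 lists was present above 0. Their part in the differences of the miR-200 members was not tested.

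As a description of likeness, Pearson's r of log2 values was computed over the 9 libraries, which share their line and their library total. It was 0.88 between fru-miR-200a_R+1 and xtr-miR-200b as deposited and 0.72 with equal totals. With the log2 library total itself, r was 0.77 for fru-miR-200a_R+1, 0.72 for xtr-miR-200b and 0.69 for gga-miR-183_R-1. Outside its family, fru-miR-200a_R+1 was most alike to cgr-miR-27a-3p_R+1_1ss19CT (r = 0.96), pma-miR-199b-3p_L+2R-1 (0.96), dre-miR-27b-3p_R-1 (0.93), tgu-miR-139-5p (0.91) and dre-miR-202-5p_R+1 (0.91). The sequences most alike to xtr-miR-200b were tgu-miR-139-5p (r = 0.92), dre-miR-222a-3p_R-1 (0.91), the predicted PC-3p-48402_39 (0.91), dre-miR-202-5p_R+1 (0.90) and cgr-miR-27a-3p_R+1_1ss19CT (0.90). With equal totals 0 sequences outside the family exceeded 0.9 for either member, and cgr-miR-27a-3p_R+1_1ss19CT was among the 5 most alike to both (r = 0.73 and 0.72).

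For gga-miR-183_R-1 the most alike were dre-miR-10c-3p_L+1R-1 (r = 0.90), dre-miR-301c-5p_R+1_1ss4CT (0.87), ssa-miR-22a-5p_R-1 (0.85), ssa-miR-725-3p (0.84) and dre-miR-222a-5p (0.83). Of these, dre-miR-301c-5p_R+1_1ss4CT (0.87), dre-miR-10c-3p_L+1R-1 (0.84), dre-miR-222a-5p (0.82) and ssa-miR-725-3p (0.81) were among the 5 most alike with equal totals too. Its r with fru-miR-200a_R+1 was 0.76 as deposited and 0.22 with equal totals, and with xtr-miR-200b 0.78 and 0.43. The median r of gga-miR-183_R-1 with the other tested sequences was 0.04 as deposited and -0.24 with equal totals.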

How the data were processed

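Per the labels' protocols, juvenile liver RNA went into TruSeq small RNA libraries, and Illumina HiSeq reads were cleaned with ACGT101-miR. The authors deposited 1 table with a signal per library and mature miRNA entry, named normalized counts per the file headers. How they were normalized, which miRNA set was used and on which build is not given in the sources used here. No coordinates were assigned.

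The 888 entries hold 728 distinct sequences, and 160 repeats with equal values were dropped. Library totals, and CPM scaled to them, are over all entries. The value of 1 read was estimated per library from the spacing of low values of sequences with 1 entry, of which 86.4% to 93.5% fell on whole reads within 0.1 read. This is too few to treat the table as counts, so no count test was run. The 278 sequences that reached 10 in 3 or more libraries were fitted by limma-trend (limma 3.58.1, R 4.3.3) after adding 1 and taking log2, all 9 libraries together, with a mean per line and two-sided p-values. The method was tested on simulated data. Ratios were tested with scipy 1.17.1 in Python 3.11.15.

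The members and lists were chosen with earlier results of these data known. Besides the 3 members, the text gives the other entries of their families, tested epithelial lists, counts of marker lists, and the 5 sequences most alike to each member. Of the marker lists, 4 are in the text and the rest follow. The hepatocyte list had 1 of 4 tested sequences lower in hybrid livers than in P. vachelli, the leukocyte list 2 of 7 higher, the muscle list 3 higher and 2 lower of 6, and the neural list 1 of 5 higher. Of all tested sequences 15.5% were higher and 19.4% lower in this comparison. Against P. fulvidraco the hybrid had 0 called by limma of the hepatocyte list (also 0 at an unadjusted p under 0.05), 1 higher each of the leukocyte and muscle lists and 2 lower of the neural list. In that comparison 19.4% of the 278 tested sequences were called, 36 as higher and 18 as lower in the hybrid. In P. vachelli against P. fulvidraco 1 was higher of the hepatocyte list, 2 lower of the leukocyte list, 2 higher and 3 lower of the muscle list and 4 lower of the neural list. The shares of all tested sequences were 30.9% higher and 20.5% lower. These counts are as deposited. With equal totals 3 of the leukocyte and 2 of the neural list were higher in hybrid livers than in P. vachelli, as were 87 of the 278. The 1 hepatocyte call between the parents was lost on that scale, where 50.7% of tested sequences were called. The other counts of these lists were unchanged. Alternatives covered scaling, pseudocount, filter, trend, a block for the replicate number, the groups fitted, summed entries and each library left out.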

Additional observations from a re-analysis of the deposited data

Results flagged for a closer look

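A signal appeared in a sequence that the fit did not test. The mean of aca-miR-182-5p_1ss10GA, from the same cluster as miR-183, was 12.9 normalized counts in P. vachelli and 6.17 in P. fulvidraco as a single entry, with every library of both species above the value of 3 reads.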

How the results depend on the processing

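Of 284 alternative values for called counts and members, 237 kept their direction and side of the threshold (counts, within 1.5 times of the reported count), 30 lost the call, 9 turned the sign, 7 were counts that moved further and 1 gained a call. For members, the fold change was fixed in advance with no filter, no trend, the replicate block or only the groups compared. It was also fixed when a library of a line outside the comparison was left out. In these settings only the adjusted p could move, so the 237 are partly built in. For the hybrid against P. vachelli, fru-miR-200a_R+1 and xtr-miR-200b gave log2 fold changes of 0.036 and 0.0093 with equal totals and -0.020 and -0.048 with equal totals without the most abundant miRNA, and were not called. At -0.31 and -0.33 they also missed the threshold with no filter (adjusted p = 0.0611 and 0.0730), no trend (0.0615 and 0.0663), only the groups compared (0.0593 and 0.0813) and the replicate block (0.0588 and 0.0975). Between the parents they gave 0.060 and 0.18 with equal totals, and 0.068 and 0.19 without the most abundant miRNA. Against the mid-parent these scalings gave 0.066 and 0.10, and 0.014 and 0.047. For gga-miR-183_R-1 against P. fulvidraco a pseudocount of 10 gave 0.037. Sequences called against the mid-parent numbered 52, with 21 under no filter and 30 under the replicate block.

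With each library left out, the hybrid against P. vachelli ranged from -0.34 to -0.26 for fru-miR-200a_R+1, from -0.42 to -0.28 for xtr-miR-200b and from -3.25 to -1.69 for gga-miR-183_R-1. Against P. fulvidraco the ranges were -0.0066 to 0.098 for fru-miR-200a_R+1 and -1.02 to 0.54 for gga-miR-183_R-1. Between the parents they were 0.30 to 0.40 for fru-miR-200a_R+1 and 2.08 to 2.32 for gga-miR-183_R-1, and against the mid-parent -2.14 to -0.57 for gga-miR-183_R-1. Called sequences ranged from 30 to 61 for the hybrid against P. fulvidraco and from 16 to 58 against the mid-parent. The cause of these changes was not tested.

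Whether replicate numbers pair the libraries was not tested. For 1 of 9 the deviations correlated best with a library of the same number, a count that cannot exclude pairing. The block therefore rests on the number alone. Depth limits gga-miR-183_R-1, with at most 19 reads in a library. Differences of log2 ratios moved by less than the larger SD of the compared lines in all 84 alternatives, an outcome fixed in advance. With 3 libraries per line, leaving 1 out cannot shift a line's mean by its SD. Summing entries shifts all lines nearly alike. The count is therefore no sign of stable ratios. The difference of gga-miR-183_R-1 over ssa-miR-122-5p between the hybrid and P. fulvidraco, -0.08, ranged from -0.88 without hybrid library 1 to 0.73 without hybrid library 3.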
